A study of Mus musculus with 12 samples.

Results

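Histone genes were followed in hippocampal SAGE-Seq libraries of enriched and standard-housed mice. The members were the gene names of the deposited expression table that begin with Hist1h to Hist4h, the replication-dependent histone genes, or with H2af, H3f3 or H1f, the variant genes. These were 82 of the 23361 names in the table, with 94 of its 29973 transcripts. Each name was represented by its transcript with the highest summed signal, and 45 names had a signal of at least 10 in 3 or more of the 12 libraries. Names with identical values in every library were taken as 1 measurement. The 45 names then gave 27 measurements, of which 19 were replication-dependent (37 of 68 names) and 8 were variant (8 of 14 names). The rule used the level of a gene but no difference between groups.

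The libraries came from the hippocampus of wild-type male mice on a C57/BL6 background, with 3 libraries, each from a different animal, in each of 4 groups. Young SH mice were given as 5 to 6 months old and lived in standard cages. Young EE mice had the same age and lived in cages enriched with running wheels, tunnels and objects. Aged SH and aged EE mice were given as 14 to 17 months old and lived in the same 2 kinds of cage. The paper counts ages from the start of its experiments. About 2 months of housing, a second maze test and further weeks passed before the tissue was taken, so the mice were older by then. Mice of all 4 groups had been tested in the Morris water maze, so no group was untrained, and 1 hippocampus of each animal was used.

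Histone proteins package DNA. A pair each of H2A, H2B, H3 and H4 molecules forms the core of the nucleosome, and H1 binds the DNA between nucleosomes. The replication-dependent genes lie in clusters, have few or no introns, and are mostly transcribed when a cell copies its DNA. Their mRNAs usually end in a short stem-loop and carry no poly(A) tail. Variant genes are transcribed throughout the cell cycle, have poly(A) tails, and supply histones to cells that no longer divide, such as most neurons of the adult hippocampus. Some replication-dependent genes can also give longer, polyadenylated mRNAs in differentiated cells.

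SAGE-Seq counts short tags. RNA was caught by its poly(A) tail, the cDNA was cut by NlaIII at CATG, and a tag of 27 bases was read from the cut next to the tail. The replication-dependent genes could therefore be counted only in so far as their RNA carried a tail. Each RNA molecule gives at most 1 tag, so levels are in RPM (reads per 1000000 reads of the scaled library) and are not divided by length. The count of a gene can hold reads of more than 1 of its NlaIII sites. A stem-loop made of the arm GGNNCT, the loop TNTN and the arm AGNNCC in direct succession, searched on the coding strand alone and without overlap with other motifs, stood within 100 bases after the stop codon in 60 of the 66 Hist names with an annotated coding end. It stood there in 1 of 12 variant names, H2afx, and in 0.200% of 35461 coding ends of all genes. The loops of Hist1h2bc and Hist1h4c are given as examples from an H2B and an H4 gene, with the stem in capitals and the loop in lower case.
Hist1h2bc: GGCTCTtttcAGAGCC
Hist1h4c: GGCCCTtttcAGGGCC
The last NlaIII site lay before the loop in 42 Hist names and after it in 8, among them Hist1h1c, Hist1h2ac, Hist1h2bc, Hist1h2be and Hist3h2a.

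Many histone genes cannot be told apart by their tags. Tags that bear on what was counted for the main results are shown 5′ to 3′ from the mm9 genome, with the NlaIII site in capitals.
Hist1h2bb and 12 other H2B names: CATGaactcgttcgtgaacgacatctt
Hist1h2bc, further downstream: CATGtatggatatatatgatgtatata
Hist1h4a and 9 other H4 names: CATGgacgtggtctacgcgctcaagcg
Hist2h2aa1, Hist2h2aa2, Hist2h2ab and Hist2h2ac: CATGgcggcggtgctggagtacctaac
Hist3h2a: CATGacgaatggttgagttacaggtaa
H3f3a: CATGtttttaatgttgtcagtcttctg
H3f3b: CATGgttttagaatatttgaaatttta
The H2B tag comes from the last NlaIII site of Hist1h2bb. Its only other site, further upstream, gives a tag shared by the same 13 names, and reads of the 2 tags cannot be told apart in the deposited values. The H2B tag had 13 copies in the genome. They lay in Hist1h2bb, Hist1h2bc, Hist1h2be, Hist1h2bg, Hist1h2bh, Hist1h2bj, Hist1h2bk, Hist1h2bl, Hist1h2bm, Hist1h2bn, Hist1h2bp, Hist1h2bq and Hist1h2br, all on chromosome 13, within the coding sequence. The copy in Hist1h2bb was at chr13:23838849-23838875 on the plus strand. The downstream Hist1h2bc tag had 1 copy, at chr13:23784303-23784329 on the plus strand, after the stop codon and 47 bases from the annotated end of a spliced transcript. It is not the last site of that transcript. A later NlaIII site lay 10 bases from the annotated end, so its tag would run past that end. The deposited values do not say which site gave the reads of Hist1h2bc. The H4 tag had 10 copies, in the coding sequences of Hist1h4a, Hist1h4b, Hist1h4c, Hist1h4f, Hist1h4h, Hist1h4i, Hist1h4j, Hist1h4k, Hist1h4m and Hist1h4n. Of the 5 copies of the Hist2h2a tag, 4 lay in the Hist2 cluster on chromosome 3 (the copy in Hist2h2ab at chr3:96023991-96024017, plus strand, coding), and 1 lay on chromosome 13 outside the histone transcripts of the table. The Hist3h2a tag was unique, at chr11:58769395-58769421 on the plus strand, after the stop codon. The H3f3a tag, at chr1:182732738-182732764 on the minus strand and also after the stop codon, had 5 further exact copies elsewhere, whereas that of H3f3b was unique (chr11:115883355-115883381, minus strand, after the stop codon).

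Single bases separated some genes from these sets. Positions are counted from 1 at the C of CATG, with the base of the shared tag first, and the differing base stands in capitals.
Hist1h2bf: catgaactcgttTgtgaacgacatctt
Hist1h4d: catggacgtTgtctacgcgctcaagcg
Hist3h2bb-ps: catgcTgtgtccgagggcaccaaggca
Hist1h2bf differed from the H2B tag by C13T and had 4 reads over all libraries, against 509 for Hist1h2bb. Hist1h4d differed from the H4 tag by G10T and had 26 reads, against 189. The pseudogene Hist3h2bb-ps differed from Hist3h2ba by C6T at its last site and had 1588 reads against 1727, with 2 further tags in common. Mapping allowed 1 mismatch, but Hist1h2bf and Hist1h4d did not hold the reads of the shared tags.

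Reads of shared tags appear to have been counted for every gene that carries them. This is read from identical values, since the deposited tables neither say so nor give counts per tag. Hist1h2bb, Hist1h2bh, Hist1h2bj, Hist1h2bl, Hist1h2bm and Hist1h2bn had identical values in all libraries, and so had Hist1h2bq and Hist1h2br. The other identical sets were Hist1h4a, Hist1h4b, Hist1h4c, Hist1h4f, Hist1h4j and Hist1h4k, then Hist1h4i, Hist1h4m and Hist1h4n, then the 4 Hist2h2a names, then Hist2h3c1 and Hist2h3c2-ps, and lastly Hist1h2ao and Hist1h2ap, whose transcripts overlap. On that reading the H2B measurements were split into the 509 reads of Hist1h2bb, taken as shared by all 13 names, and the reads that each gene held beyond them. Beyond the shared reads, Hist1h2bc had 2724 reads, Hist1h2be 153, Hist1h2bq and Hist1h2br 130, and Hist1h2bk 5. Hist1h2bg had 2 such reads and Hist1h2bp 1, so their measurements were nearly the shared reads alone.

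The 37 names that did not pass the filter had at most 36 reads over all libraries, reached by Hist1h3d, and 16 of them had 0. Of those 16, 11 had no NlaIII site in their transcript model, among them H2afx, the variant of DNA damage sites, H2afz, a variant of promoters, the linker histone gene Hist1h1b, and Hist4h4. Their absence from the counts says nothing of their RNA. Of the 13 names without a site, the other 2 held reads, Hist1h2ap with the 475 reads of the overlapping Hist1h2ao and Hist1h2ak with 1. No name that did not pass reached a signal of 10 in any library. Of the 27 measurements, 22 had a signal of at least 10 in all 12 libraries. The exceptions were Hist1h2ac and the Hist1h4a set in 7, Hist1h4h and the Hist1h4i set in 10, and the Hist1h2ao set in 11. The Hist1h4a set reached it in 0 young SH, 2 young EE, 2 aged SH and all 3 aged EE libraries. Its place among the measurements therefore rested on the groups other than young SH.

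Library totals ranged from 6928733 to 16035101 reads, and 1 read was worth 0.0657 to 0.148 RPM. Neuronal markers were at a mean log2 RPM of 7.59 to 8.01 in every library. The libraries differed in tissue content. A ventral hippocampus list (15 of 16 genes measured) had a mean log2 RPM of 2.95 to 3.21 in young SH 1 and 3 and aged EE 1 and 3, and of 4.13 to 4.58 in the other 8. Choroid plexus genes summed to 1032 RPM in aged EE 3 and to 69.8 to 139 RPM elsewhere. Genes of cycling cells (16 of 26 measured) summed to 136 to 176 RPM without separating the groups. P-values of the main limma fit rest on the spread between animals within groups. That spread was pooled over the 4 groups and moderated with a variance trend across measurements. Fewer cells of a type and less RNA per cell cannot be told apart in such tissue.

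The first question was how age and housing bore on the H2B genes of the Hist1 cluster. Their shared reads were about 3 times as abundant in young SH mice as in any other group, and Hist1h2bc was higher in young SH than in either aged group. In aged SH against young SH, 8 of the 27 histone measurements passed an adjusted p of 0.1 (limma, Benjamini-Hochberg over 13027 measurements), where 2.73% of all measurements passed. All 7 that fell were H2B genes of the Hist1 cluster, where 1.61% of all measurements fell. These 7 rest on only 2 sets of reads, the shared reads and those of Hist1h2bc. The calls did not hold in most fits with 1 library left out. Without young SH 3, young EE 3, any aged SH library, aged EE 2 or aged EE 3, 0 remained. In each of those fits 0 to 4 of all measurements passed. Leaving out young SH 1 left 1 histone call, leaving out aged EE 1 left 4, and 9 were made without young EE 1. Over all measurements 14 of 12957, 7 of 12974 and 1107 of 12942 passed in these last 3 fits. The 8 libraries that the study kept also gave 0 histone calls, where 0 of all 12792 measurements passed. The reads do not say which of the 13 genes was transcribed, and the 7 calls are not 7 separate events.

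The shared H2B reads stood at 7.74, 6.84 and 6.52 RPM in young SH 1, 2 and 3, from 104, 98 and 76 reads. They stood at 1.84, 1.95 and 2.23 RPM in the young EE libraries and 2.12, 1.98 and 2.66 RPM in the aged SH libraries. In aged EE they stood at 1.16, 2.48 and 2.81 RPM. All 3 young SH libraries lay above all 9 others, whose highest value was 2.81 RPM. The group means were 7.04 ± 0.63 RPM in young SH and 2.01 ± 0.20 in young EE (SD, n = 3). They were 2.25 ± 0.35 in aged SH and 2.15 ± 0.87 in aged EE. The log2 difference of the Hist1h2bb set, which holds these reads alone, was -1.58 in aged SH against young SH (SE 0.30, adjusted p = 0.0756, limma), a level 2.99 times lower. It stayed between -1.70 and -1.50 with any 1 library left out. Folds from this fit are on the scale of log2 RPM with a pseudocount of 2 reads, which understates differences of low genes.

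**Figure D1:**
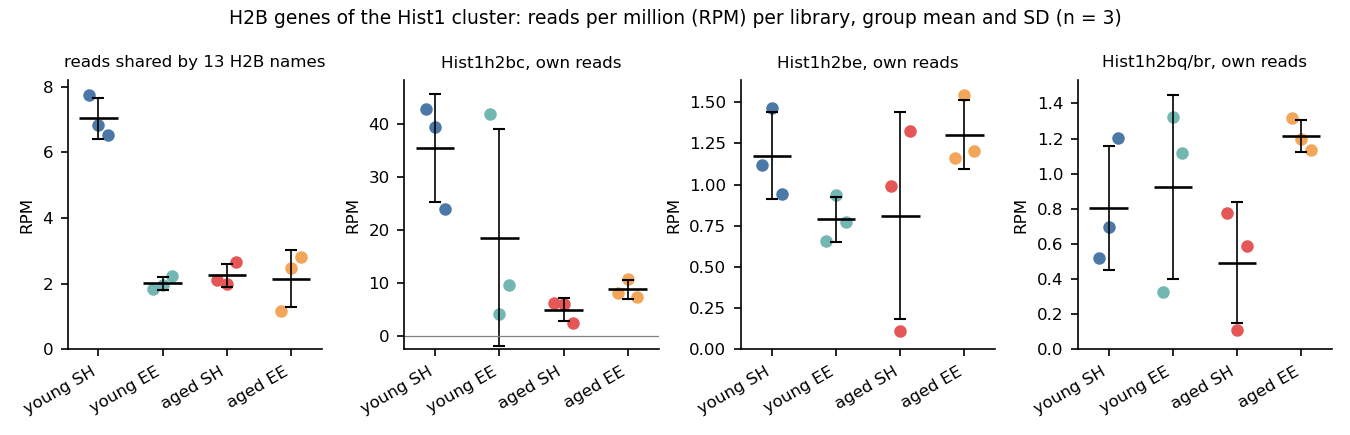
RPM of the H2B genes of the Hist1 cluster by group. Each point is a library, the bar is the group mean, and the error bar is the SD (n = 3). The reads shared by 13 H2B names lie at 6.52 to 7.74 RPM in young SH and at 1.16 to 2.81 RPM in the other 9 libraries. The reads of Hist1h2bc beyond them are high in young SH and in young EE 1, and the reads of Hist1h2be and of Hist1h2bq and Hist1h2br beyond them do not set young SH apart.

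Young EE was compared with the same young SH libraries, so the comparison is not independent of that with aged SH. Here the Hist1h2bb set had a log2 difference of -1.73 (SE 0.30), with no overlap of the groups, and its adjusted p of 0.255 missed the threshold (limma). No histone measurement passed, and 0.0% of all measurements did. At an unadjusted p under 0.05, 9 histone measurements differed, against 9.54% of all. DESeq2 and the likelihood ratio test (edgeR) called the same 6 of them here, the measurements that hold the shared reads other than Hist1h2bc, where 0.484% and 0.284% of all measurements passed. Without young EE 1 limma called 7 (292 of all 12942 measurements), and without aged EE 1 it called 4 (4 of 12974). In aged EE against aged SH the set differed by -0.14 (SE 0.30, adjusted p = 0.922), and in aged EE against young EE by 0.01 (SE 0.30, adjusted p = 0.993). The housing difference itself differed between ages by 1.60 on the log2 scale (SE 0.42, adjusted p = 0.278), with 0 histone measurements called and 11 under an unadjusted p of 0.05, where 0.0% and 12.1% of all measurements were. For housing by age DESeq2 called 6, where 2.18% of all measurements passed, and the likelihood ratio test called 6, where 1.26% did.

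Hist1h2bc was the H2B gene with the most reads, and 2724 of its 3233 reads lay beyond the shared ones. Those reads stood at 42.9, 39.4 and 23.9 RPM in young SH 1, 2 and 3. They stood at 41.9, 4.12 and 9.53 RPM in young EE and at 6.30, 6.06 and 2.51 RPM in aged SH. In aged EE they stood at 8.12, 10.8 and 7.42 RPM. Young EE 1 was at the level of young SH, and the other 8 libraries outside young SH lay below every young SH library. With the shared reads included, Hist1h2bc fell by 2.53 on the log2 scale in aged SH against young SH (SE 0.54, adjusted p = 0.0845, limma), a level 5.77 times lower. In young EE against young SH the difference was -1.49 (SE 0.54, adjusted p = 0.451, limma). With any 1 library left out it ranged from -2.27 to -0.86. Its lower end, without young EE 1 (adjusted p = 0.018, limma), was the only 1 of 26 alternative analyses to pass.

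The reads that belong to the other H2B genes did not follow this pattern. Hist1h2be had 1.12, 1.47 and 0.94 RPM of its own in young SH, 0.66 to 0.93 in young EE, 0.11 to 1.33 in aged SH and 1.16 to 1.54 in aged EE. Hist1h2bq and Hist1h2br had 0.52, 0.70 and 1.20 RPM of their own in young SH, and 0.11 to 1.32 RPM elsewhere. These ranges overlapped between young SH and each other group except Hist1h2be in young EE, and the values came from 1 to 21 reads each. The measurements of Hist1h2be (log2 difference -1.42, adjusted p = 0.0756), of Hist1h2bq and Hist1h2br (-1.48, adjusted p = 0.0756) and of Hist1h2bg, Hist1h2bk and Hist1h2bp (each -1.59, adjusted p = 0.0756) passed in aged SH against young SH through the shared reads. A further H2B pair lies in the Hist3 cluster on chromosome 11. Hist3h2ba had 15.2, 9.63 and 13.5 RPM in young SH and 9.41, 11.8 and 4.87 in aged SH, which overlapped (log2 difference -0.61, SE 0.30, adjusted p = 0.286). The pseudogene Hist3h2bb-ps, with which it shares a tag, differed by -0.60 (adjusted p = 0.285).

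Markers of other cells also varied among the libraries. Of 9 red blood cell genes, 7 were in the table and 3 were measured, and none of the 7 was at 0 in every library. The 3 summed to 1156 to 2724 RPM in young SH, 435 to 1068 in young EE, 723 to 1016 in aged SH and 558 to 1167 in aged EE. Young SH and aged EE thus overlapped. The ventral genes were low in young SH 1 and 3, and at a mean log2 RPM of 4.50 in young SH 2. They were also low in aged EE 1 and 3, at 3.21 and 2.95. The parts of blood and of tissue region in the H2B difference were not tested.

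The variant genes held most histone reads, and among them H3f3a and H3f3b, which encode the same replacement H3 protein, held 66.7 to 82.2% of the variant reads of a library. The question was whether they moved with age or housing as the cluster genes did. H3f3a was lowest in young SH, whereas H3f3b stayed within a narrow range. H3f3a had 462, 217 and 153 RPM in young SH and 365, 708 and 693 RPM in young EE. It had 622, 583 and 906 RPM in aged SH and 732, 576 and 793 RPM in aged EE. Every aged library lay above every young SH library, while young EE 1 lay below young SH 1. H3f3a rose by 1.47 on the log2 scale in aged SH against young SH (SE 0.37, adjusted p = 0.0970, limma), a level 2.78 times higher, and it was the only variant gene that passed, where 1.12% of all measurements rose. This call lies close to the threshold, was lost in 17 of 26 alternative analyses with differences of 1.11 to 1.91, and the quasi-likelihood test of edgeR gave an adjusted p of 0.116. In young EE against young SH the difference was 1.18 (SE 0.37, adjusted p = 0.435), and between aged EE and aged SH it was 0.01 (SE 0.37, adjusted p = 0.997). The housing difference differed between ages by -1.17 (SE 0.53, adjusted p = 0.408). Because the H3f3a tag has 5 other exact copies in the genome, its reads cannot be assigned to H3f3a alone.

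H3f3b had 286 to 346 RPM in the 12 libraries, and its group means were 307 ± 22.8 RPM in young SH, 308 ± 23.8 in young EE, 329 ± 11.6 in aged SH and 327 ± 19.0 in aged EE (SD, n = 3). It had the smallest spread within groups of all 27 measurements (SD 0.09 on the log2 scale) and differed by 0.10 in aged SH against young SH (SE 0.12, adjusted p = 0.684). The last tag of H3f3b is unique. Other NlaIII sites of this gene give tags with further exact copies in the genome, and the deposited values do not say which site gave its reads.

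**Figure D2:**
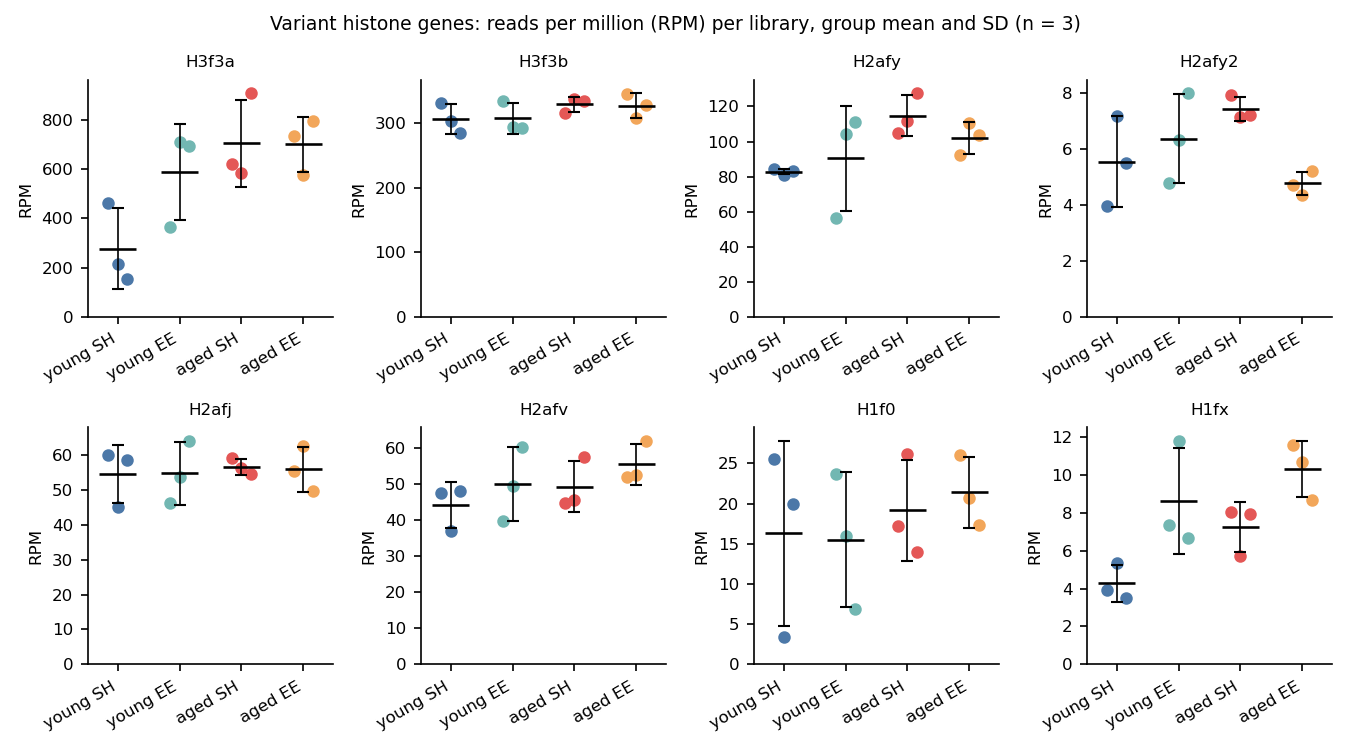
RPM of the 8 variant histone genes by group. Each point is a library, the bar is the group mean, and the error bar is the SD (n = 3). H3f3a ranges from 153 to 462 RPM in young SH and from 576 to 906 RPM in the aged libraries, while H3f3b stays at 286 to 346 RPM in all 12. H1fx is lowest in young SH, and H2afy2 is lower in aged EE than in aged SH.

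The linker histone genes H1fx and H1f0 differed from each other. H1fx, which encodes a divergent H1, had 3.95, 5.38 and 3.52 RPM in young SH and 7.36, 11.8 and 6.70 RPM in young EE. It had 8.07, 5.73 and 7.97 RPM in aged SH and 11.6, 10.7 and 8.69 RPM in aged EE, so all 9 other libraries lay above young SH. None of its differences passed: it was 0.96 in young EE against young SH (SE 0.26, adjusted p = 0.418) and 0.74 in aged SH against young SH (SE 0.26, adjusted p = 0.171). H1f0, the linker histone of resting and differentiated cells, had the largest spread of the variant genes (within-group SD 0.94 on the log2 scale). It had 25.6, 3.42 and 19.9 RPM in young SH and 23.7, 15.9 and 6.87 RPM in young EE. In the aged libraries it had 14.0 to 26.2 RPM. Its groups overlapped in every comparison.

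H2afy and H2afy2 encode the macroH2A proteins, which carry a large additional domain and are known from silenced chromatin. H2afy had 84.2, 81.1 and 83.0 RPM in young SH and 105, 112 and 127 RPM in aged SH, without overlap, and its difference of 0.47 did not pass (SE 0.22, adjusted p = 0.275). Young EE ranged from 56.3 to 111 RPM and aged EE from 92.4 to 111 RPM. H2afy2 had 7.93, 7.16 and 7.23 RPM in aged SH and 4.72, 4.37 and 5.21 RPM in aged EE. The aged groups did not overlap, and the difference of -0.63 (SE 0.25, adjusted p = 0.530) did not pass. In the young groups H2afy2 ranged from 3.95 to 7.98 RPM, and the difference between ages in the housing effect was -0.83 (SE 0.36, adjusted p = 0.385). H2afj, a further H2A variant, and H2afv, a relative of H2afz, had means of 55.5 ± 6.06 and 49.8 ± 7.69 RPM (SD, n = 12), and their differences ranged from -0.03 to 0.18 over the 5 comparisons.

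In the aged mice the comparison was between enriched and standard housing. No histone measurement passed, where 0.00768% of all measurements did. At an unadjusted p under 0.05, 4 were higher and 1 was lower in aged EE, where 4.51% and 4.38% of all measurements were, that is 5 of 27 against 8.89%. The groups did not overlap in 8 measurements with aged EE higher and in 1 with aged EE lower, where 8.37% and 8.77% of all measurements did so. The edgeR tests and DESeq2 also called 0 histone measurements here, with 0 (quasi-likelihood), 16 (likelihood ratio) and 100 (DESeq2) calls over all measurements. In aged EE against young EE 0 passed (0.0% of all), and 2 lay under an unadjusted p of 0.05, where 7.82% of all measurements did.

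The H2A genes of the Hist2 cluster stood first by p. Their shared tag had 6.09, 12.4 and 12.2 RPM in aged SH and 18.3, 16.5 and 24.1 RPM in aged EE. It had 9.98, 9.42 and 8.84 RPM in young SH and 7.10, 13.7 and 10.99 RPM in young EE, so the 3 aged EE libraries lay above the other 9. The difference from aged SH was 0.98 (SE 0.31, adjusted p = 0.520), and from young EE it was 0.91 (SE 0.31, adjusted p = 0.632). These comparisons share the aged EE libraries. Without aged EE 3, the library with choroid plexus RNA, the difference from aged SH was 0.82. It ranged from 0.64 to 1.15 with any 1 library left out. The parts of choroid plexus RNA and of tissue region were not tested.

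Hist1h1c, the replication-dependent linker histone with a tag after the stem-loop, had 5.66, 7.49 and 4.43 RPM in aged SH and 13.1, 6.68 and 12.9 RPM in aged EE. Aged EE 2 lay within the range of aged SH. It had 9.53, 9.42 and 6.52 RPM in young SH and 3.61, 7.47 and 6.18 RPM in young EE. The difference was 0.84 between the aged groups (SE 0.34), 0.90 in aged EE against young EE (SE 0.34) and 1.43 for housing by age (SE 0.48), with adjusted p of 0.530, 0.632 and 0.301. Both aged EE libraries with high Hist1h1c, 1 and 3, were the ones with low ventral genes, and their dentate granule markers stood at a mean log2 RPM of 4.22 and 4.42, against 3.09 to 3.48 in the other 4 aged libraries. The young libraries did not show this match. Dentate markers stood at 4.37, 2.94 and 4.38 in young SH 1, 2 and 3, and at 3.45, 2.99 and 3.07 in young EE 1, 2 and 3. Young SH 2, with the lowest of these, had 9.42 RPM of Hist1h1c, and young SH 3, with the highest, had 6.52 RPM. The part of tissue content in this difference was not tested.

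**Figure D3:**
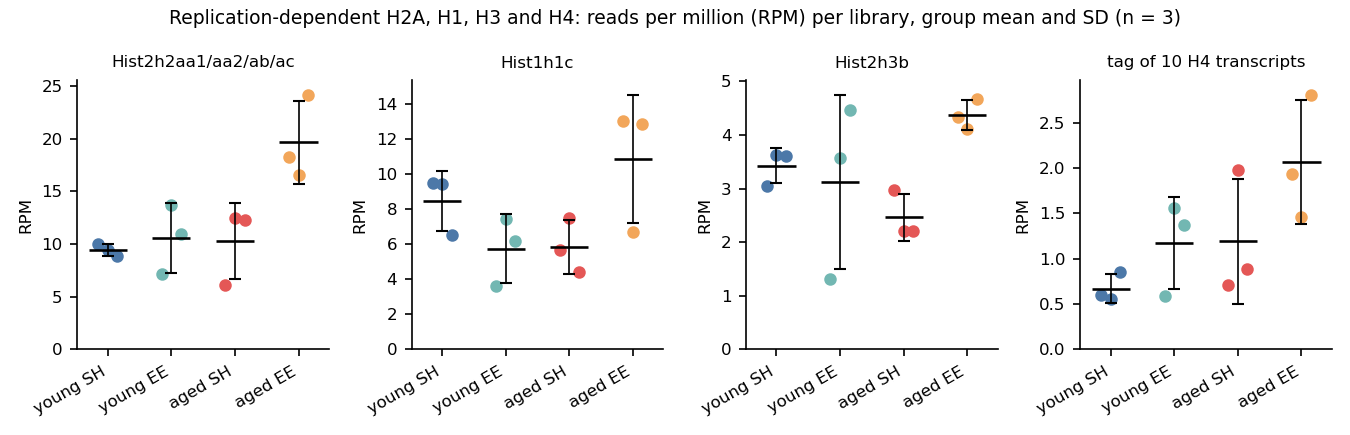
RPM of 4 replication-dependent measurements by group. Each point is a library, the bar is the group mean, and the error bar is the SD (n = 3). The tag of Hist2h2aa1, Hist2h2aa2, Hist2h2ab and Hist2h2ac lies at 16.5 to 24.1 RPM in aged EE and at 6.09 to 13.7 RPM in the other 9 libraries. For Hist1h1c, Hist2h3b and the tag of 10 H4 transcripts, aged EE has the highest group mean but overlaps at least 1 other group.

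The H3 genes of the Hist2 cluster had low counts. Hist2h3b had 2.97, 2.20 and 2.21 RPM in aged SH and 4.33, 4.11 and 4.68 RPM in aged EE, with a difference of 0.80 (SE 0.36, adjusted p = 0.556). It had 3.05, 3.63 and 3.60 RPM in young SH and 1.31, 3.58 and 4.46 RPM in young EE. Hist2h3c1 and Hist2h3c2-ps added only 7 reads to those of Hist2h3b, so their difference of 0.75 (adjusted p = 0.570) is the same measurement. In aged EE against young EE they differed by 0.63 (SE 0.36, adjusted p = 0.673).

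The H4 tag, with 189 reads in all, was near the limit of these libraries. It had 0.60, 0.56 and 0.86 RPM in young SH, from 8 to 10 reads each, and 0.59, 1.56 and 1.37 RPM in young EE. It had 0.71, 1.98 and 0.89 RPM in aged SH and 1.93, 1.46 and 2.81 RPM in aged EE. The difference was 0.79 between the aged groups (SE 0.43, adjusted p = 0.615) and 0.78 in aged EE against young EE (SE 0.43, adjusted p = 0.667), with overlap in both. Hist1h4h had 38 reads of its own and the Hist1h4i set 48. Their differences between the aged groups were 0.82 (SE 0.44, adjusted p = 0.606) and 0.51 (SE 0.40, adjusted p = 0.732).

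Hist3h2a gave the most reads of the replication-dependent genes and had a small spread within groups (SD 0.21 on the log2 scale). It had 70.2, 71.4 and 70.3 RPM in young SH, 70.3, 73.0 and 83.3 RPM in young EE, and 76.6, 73.5 and 50.3 RPM in aged SH. In aged EE it had 78.2, 100.1 and 76.9 RPM. The aged groups did not overlap, as in 8.37% of all measurements with aged EE higher. Hist3h2a differed between them by 0.36 (SE 0.18, adjusted p = 0.577), and it made up 41.8 to 66.0% of the replication-dependent reads of a library. Hist3h2ba, the H2B gene of the same cluster, had 13.4, 14.99 and 11.96 RPM in aged EE. It differed from aged SH by 0.70 (SE 0.30, adjusted p = 0.539, limma), and by 0.34 to 0.97 with any 1 library left out. Aged SH 3, the library with the fewest reads, was the lowest of its group for both genes, at 4.87 RPM for Hist3h2ba. The remaining H2A genes were scarce. Hist1h2ac had 0.26 to 1.37 RPM in all libraries, and the Hist1h2ao set ranged from 0.49 RPM in young SH 2 to 5.21 RPM in young SH 1, the largest spread within groups of all 27 measurements (SD 0.94 on the log2 scale).

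**Figure D4:**
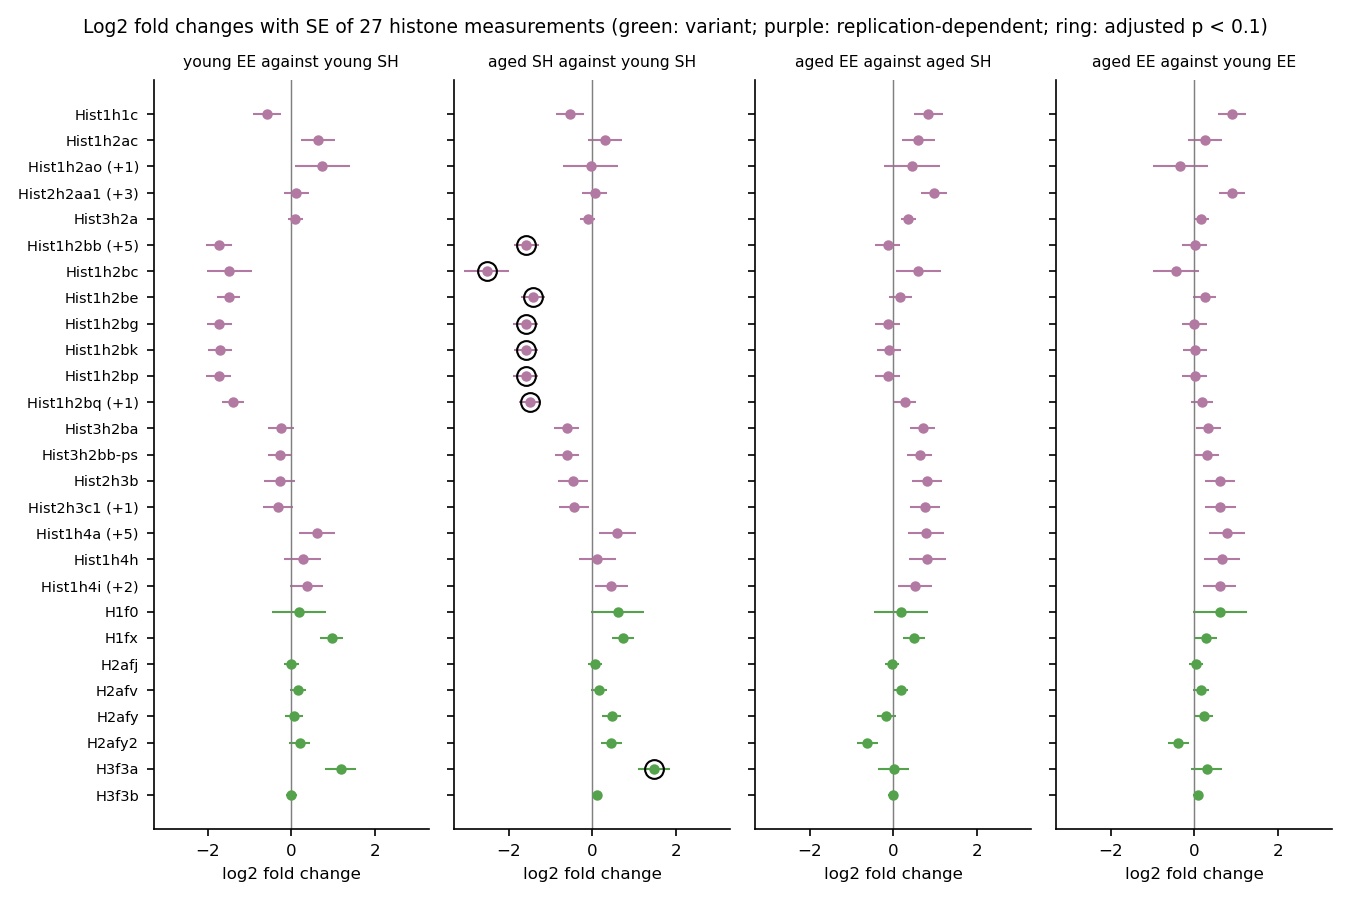
Log2 fold changes with SE of the 27 histone measurements in 4 comparisons, from limma over all 12 libraries. Names in brackets give the number of further names with identical values, green marks variant and purple marks replication-dependent genes, and rings mark an adjusted p under 0.1. Rings stand only in aged SH against young SH, at 7 H2B measurements that share reads and at H3f3a.

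The replication-dependent and variant genes were then set side by side. In aged SH against young SH, 14 of 19 replication-dependent measurements were lower and 8 of 8 variant measurements were higher, with medians of -0.53 and 0.46 on the log2 scale. In young EE against young SH, 12 of 19 were lower and 8 of 8 were higher, with medians of -0.28 and 0.17. In aged EE against aged SH, 15 of 19 replication-dependent and 4 of 8 variant measurements were higher, with a median of 0.60 for the replication-dependent measurements and a median close to 0 for the variant ones. In aged EE against young EE, 16 of 19 and 7 of 8 were higher, with medians of 0.26 and 0.20. The median of all 13027 measurements lay between -0.01 and 0.02 in these 4 comparisons. For housing by age the medians were 1.07 and -0.13, against 0.04 over all measurements. Scaling by total reads moved the median of all measurements to -0.12 in aged SH against young SH, and the variant genes were then higher in 6 of 8, and in 5 of 8 in the young comparison. Since 6 of the 19 measurements consist mostly of the shared H2B reads, and others share tags as well, these counts are not counts of independent genes.

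Counting each shared read once, replication-dependent genes summed to 142 to 168 RPM in young SH and 124 to 144 RPM in young EE. They summed to 85.1 to 121 RPM in aged SH and 144 to 165 RPM in aged EE, so aged SH lay below the other 3 groups. Variant genes summed to 657 to 1019 RPM in young SH, 878 to 1244 in young EE, 1174 to 1509 in aged SH and 1146 to 1368 in aged EE. The log2 ratio of the sums was -2.60, -2.18 and -2.21 in young SH and -2.61, -3.32 and -3.20 in young EE. It was -3.35, -3.28 and -4.15 in aged SH and -3.19, -2.79 and -3.17 in aged EE. Every young SH library had a higher ratio than every library of the other groups, though young SH 1 and young EE 1 were nearly equal. Replication-dependent genes thus gave 14.1 to 18.0% of histone reads in young SH and 9.10 to 14.1% in young EE. They gave 5.34 to 9.35% in aged SH and 9.86 to 12.6% in aged EE. The group difference in the log2 ratio was -1.26 in aged SH against young SH, -0.71 in young EE against young SH, 0.54 in aged EE against aged SH and -0.01 in aged EE against young EE, where the SD within groups was 0.35. Without aged SH 3 the difference between the aged groups was 0.26, below that SD, and that between the EE groups changed sign with single libraries left out. No test was made of this ratio, and H3f3a, Hist3h2a and Hist1h2bc carry much of it.

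**Figure D5:**
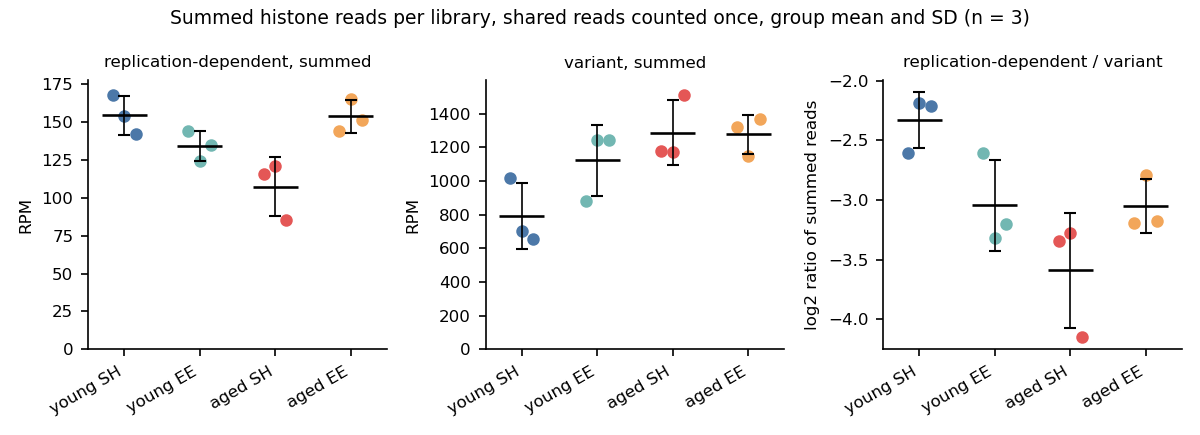
Summed RPM of replication-dependent and of variant histone genes and the log2 ratio of the sums, with each shared read counted once. Each point is a library, the bar is the group mean, and the error bar is the SD (n = 3). The ratio runs from -2.60 to -2.18 in young SH and from -4.15 to -3.28 in aged SH.

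Genes that act on histones and their mRNAs were given as lists. Of 17 genes of histone mRNA 3′ end processing, 16 were measured, and 0 passed in any of the 5 comparisons (limma). In aged SH against young SH, 0 were higher and 4 lower at an unadjusted p under 0.05. Of all measurements 19.4% lay under it in either direction, and 1219 of those 2527 were higher. Among the lower were Cpsf3, which encodes the endonuclease that cuts histone pre-mRNA (-1.85, SE 0.72, adjusted p = 0.201), its partner Cpsf2 (-1.64, SE 0.61, adjusted p = 0.188) and the cap-binding Ncbp1 (-0.92, SE 0.33, adjusted p = 0.176). In aged EE against aged SH, Ncbp1 differed by 1.04 (SE 0.33) and Npat, a coactivator of histone gene transcription, by -0.77 (SE 0.21), each with an adjusted p of 0.520.

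Of 34 histone chaperone and exchange genes, 32 were measured and 0 passed in any comparison. In aged SH against young SH, 2 of the 32 were higher and 3 lower at p under 0.05, where 19.4% of all measurements lay under it in either direction. Among them were Ruvbl1, an ATPase of remodelling complexes (-0.77, SE 0.22, adjusted p = 0.115), and Asf1a, a chaperone of H3 and H4 (0.55, SE 0.19, adjusted p = 0.167). In young EE against young SH, where 9.54% of all measurements lay under a p of 0.05, only Set, a histone chaperone, did so (0.75, SE 0.22, adjusted p = 0.418). All 16 polyadenylation genes and all 11 other chromatin proteins were measured, and 0 passed in any comparison. The poly(A)-binding Pabpc1 differed by -0.82 in young EE against young SH (SE 0.25, adjusted p = 0.418), and the nucleosome-binding Hmgn1 by 0.77 in aged EE against aged SH (SE 0.28, adjusted p = 0.520). Of the polyadenylation genes 1 to 3 and of the chromatin proteins 0 to 1 lay under an unadjusted p of 0.05 in a comparison, where 7.82% to 19.4% of all measurements did. Medians of the 4 lists ranged from -0.16 to 0.19 on the log2 scale over the 5 comparisons.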

How the data were processed

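Hippocampal RNA of 12 mice was measured by SAGE-Seq. SOLiD reads were mapped by the authors to mm9 at up to 1 mismatch, and 29973 RefSeq transcripts received counts. The submitters' processing notes name edgeR. The deposited signal per library is a count of reads over a library factor (steps of 0.940 to 1.09), with the same library values in all 12 tables. Below 1000, 100% of values were whole multiples of their step within 0.1 read (34.6% for young EE 3 if its step, the one nearest to 1, were 1), so whole reads were recovered. The tables also hold the authors' group means, fold changes and p-values, which were not used as results. The means showed only which 8 libraries the study compared, a choice it made by tests on called transcripts, and all 12 entered here.

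Reads were scaled with TMM factors (edgeR 4.0.16) to log2 RPM with a pseudocount of 2 reads and tested with limma (3.58.1, R 4.3.3) with a variance trend, all 4 groups in 1 fit. Measurements with a signal of at least 10 in 3 or more libraries were tested, and p-values were adjusted by Benjamini-Hochberg over 13027 measurements at a threshold of 0.1. The procedure was tested on simulated data. Alternatives were the quasi-likelihood and likelihood ratio tests of edgeR, DESeq2 (1.42.0), other scalings, filters, pseudocounts and row choices, only the groups compared, the study's libraries, the replicate number as a block, and each library left out. Tags and stem-loops were read from the mm9 genome with GENCODE transcript models. The stem-loop pattern was widened after H4 genes were seen to carry another stem.

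Members, lists and tests were chosen with earlier results of these data known. Named genes were, per class, the 5 with the highest mean RPM, the 4 with the smallest p in each comparison, all with an adjusted p under 0.1, the 4 with the largest spread within groups, identical sets and all variant genes.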

Additional observations from a re-analysis of the deposited data

How the results depend on the processing

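For 36 named results over all alternatives, 803 values kept their direction and their side of the threshold, 85 lost the threshold, 37 gained it and none reversed. In aged SH against young SH the count of histone calls, 8, became 0 with the 8 libraries the study used, 14 with identical rows not joined, which counts the same reads under more names, and 5 with the replicate block, and it ranged from 0 to 9 with single libraries left out. The count over all genes ranged there from 0 to 1107 and was under 20 in 9 of 12 cases, and the cause was not tested. In young EE against young SH the count of 0 became 6 with the likelihood ratio test of edgeR and 6 with DESeq2, and ranged from 0 to 7 with single libraries left out. For housing by age it became 6 with each of these tests and ranged from 0 to 1. Counts for the other comparisons stayed at 0. The log2 ratio of the classes moved by less than the SD within groups. Replicate numbers did not pair the libraries: deviations of same-numbered libraries correlated at -0.23 to 0.21 (n = 18 pairs, across genes, which are not independent replicates), and those of different numbers at -0.38 to 0.41. At 1 read per 0.0657 to 0.148 RPM, the H4 tag and the own reads of Hist1h2be, Hist1h2bq and Hist1h2br are limited by depth.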
